A study of Mus musculus with 9 samples.

Results

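Immediate early genes are genes whose mRNA appears soon after a growth factor or stress signal reaches the cell, without new protein synthesis. The members followed here were Egr1, Fos, Fosl1, Fosl2, Jun, Junb, Ier2, Ier3, Atf3 and Phlda1. They were taken by gene symbol, and all 10 were present among the 38293 genes of the count table. The samples were E14 mouse embryonic stem cells (mESC), a line of strain 129/Ola, and epiblast-like cells (EpiLC) made from them, with 3 biological replicates in each of 3 culture states. mESC-2i were kept in the serum-free medium N2B27 with 1 µM of the MEK inhibitor PD0325901, 3 µM of the GSK3 inhibitor CHIR99021 and 10 ng/mL mLIF. mESC-ser were kept on gelatin in DMEM with 15% foetal bovine serum and 10 ng/mL mLIF, with neither inhibitor. EpiLC were derived from naive cells on fibronectin in N2B27 with 20 ng/mL activin A, 12 ng/mL bFGF and 1% KSR, and their medium names neither inhibitor nor mLIF. Serum, both inhibitors and the base medium differed together between mESC-ser and mESC-2i, so the part of each in a difference cannot be told apart. All samples came from 1 cell line, and the medium was changed daily in all conditions. There was no stimulation time course, and the time from the last medium change to harvest was not examined.

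As background, serum and fibroblast growth factors signal through RAS, RAF, MEK and ERK, and PD0325901 blocks this chain at MEK. Active ERK phosphorylates ternary complex factors such as ELK1, which sit beside the serum response factor SRF on CArG boxes and switch on Egr1 and Fos. The FOS and JUN proteins pair to form AP-1, a transcription factor that binds the TGANTCA site and controls a later wave of genes. ERK-driven differentiation signals are known to destabilise the naive state of mESC, which is why MEK inhibition is part of the 2i recipe.

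The sequences just before the transcription start were examined for the sites through which such signals reach these genes. Windows before RefSeq start sites on GRCm38.p6 were scanned for 6 of the 10 genes (Fos, Fosl2, Jun, Junb, Ier3 and Atf3). The promoters of the other members, Egr1 among them, were not scanned. In the 250 bases before each start, none of the 6 held the AP-1 site TGANTCA, which 6.75% of all 32851 promoter windows of that length held on either strand, or a CArG box, which 1.47% held. At shares this low, 6 windows without a match are the likely outcome and say little about these genes. Bases farther upstream were not scanned. The other searched motifs were the cyclic AMP response core TGACGT (6.47% of windows), the AP-1/ATF variant TGACATCA (2.93%), the ETS core GGAAGT (19.7%) and the EGR site GCGNGGGCG (4.7%). The last 120 bases before the start are shown for the 4 genes with a match there and a window at most partly exonic, to let the motifs be compared, with the matched letters in capitals. The windows are chr12:85473770-85473889 on the plus strand for Fos, chr4:95052223-95052342 on the minus strand for Jun, chr8:84978749-84978868 on the minus strand for Junb and chr1:191183334-191183453 on the minus strand for Atf3.
Fos: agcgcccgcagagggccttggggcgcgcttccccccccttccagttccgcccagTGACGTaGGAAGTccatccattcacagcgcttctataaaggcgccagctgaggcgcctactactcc
Jun: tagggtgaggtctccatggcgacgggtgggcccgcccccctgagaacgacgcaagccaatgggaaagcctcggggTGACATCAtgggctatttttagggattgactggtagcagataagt
Junb: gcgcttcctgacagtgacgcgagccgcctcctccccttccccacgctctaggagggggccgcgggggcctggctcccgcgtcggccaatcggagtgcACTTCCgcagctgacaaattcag
Atf3: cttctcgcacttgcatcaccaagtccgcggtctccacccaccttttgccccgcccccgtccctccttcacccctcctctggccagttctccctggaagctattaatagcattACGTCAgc

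Fos held TGACGT at -66 to -61 and GGAAGT at -59 to -54, counted from the start. Jun held TGACATCA at -45 to -38. Junb held GGAAGT on the opposite strand, read here as ACTTCC, at -23 to -18, and Atf3 held TGACGT on the opposite strand, read as ACGTCA, at -8 to -3, in a window of which 7 bases lie in annotated exons. Fosl2 held GCGNGGGCG at -79 to -71 in a window that lies wholly within an annotated exon, and Ier3 held none of the searched motifs. These are matches of letters and were not tested for binding.

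The count table held between 7187576 and 16829549 counts per library. Replicates of every group differed by more than sampling noise, with a chi-square per degree of freedom of 1.61 to 28.3, and the values over 10 all involved replicate 3 of mESC-2i or mESC-ser. The state labels were matched by markers, since the 5 pluripotency markers (Pou5f1, Sox2, Nanog, Zfp42 and Esrrb) summed to 2705 to 3219 CPM (counts relative to library size) in mESC-2i, 2340 to 2428 in mESC-ser and 1126 to 1191 in EpiLC, and the 4 EpiLC markers (Fgf5, Otx2, Pou3f1 and Dnmt3b) summed to 71.8 to 80.3 in mESC-2i, 609 to 711 in mESC-ser and 1620 to 1709 in EpiLC. Of the pluripotency markers, 2 fell in mESC-ser over mESC-2i and 4 fell in each EpiLC comparison, and all 4 EpiLC markers rose in every comparison. Summed primitive endoderm markers, 8 genes, ranged from 19.8 to 22.6 CPM in mESC-2i, from 46.4 to 48.7 in mESC-ser and from 11.8 to 13.7 in EpiLC, with none at 0 in a whole group. In mESC-ser over mESC-2i, 4 of the 7 tested rose and 2 fell, in EpiLC over mESC-2i 1 of 5 rose and 2 fell, and in EpiLC over mESC-ser 1 of 7 rose and 5 fell. Summed fibroblast markers, also 8 genes, ranged from 52.8 to 57.2, from 63.5 to 83.2 and from 42.3 to 46.4 in the same order, with Lum at 0 in every EpiLC library. Of the 5 tested in mESC-ser over mESC-2i, 1 rose and 2 fell, and of the 6 tested in each EpiLC comparison 2 rose and 4 fell. Ribosomal protein genes took 4.48% to 6.39% of counts in mESC-2i, 2.51% to 3.09% in mESC-ser and 10.2% to 10.7% in EpiLC. The part of these shifts in the levels of the immediate early genes was not tested, and in bulk RNA fewer expressing cells cannot be told apart from less RNA per cell.

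In mESC-ser relative to mESC-2i, 6 of the 10 genes rose and 1 fell. Egr1, Fosl1, Phlda1, Junb, Fosl2 and Fos were higher in mESC-ser, Atf3 was lower, and Jun, Ier2 and Ier3 did not pass the test. A gene was called when its edgeR quasi-likelihood adjusted p was under 0.05 and its absolute log2 fold change over 0.5. The same rule called 56.2% of all tested genes, 25.9% higher and 30.3% lower, so the 7 of 10 called stand in a table in which most genes differed. After a correction for transcript length and GC content, 7 rose and 0 fell. The median log2 fold change was 1.13 over the 10 genes and -0.04 over all genes tested.

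In EpiLC relative to mESC-2i, 2 of the 9 genes tested rose (Egr1 and Ier2) and 4 fell (Fos, Fosl2, Jun and Ier3), against 69.8% of all tested genes called, 32.0% higher and 37.8% lower, so the share of members called was near that of all genes. Fosl1 was not tested there, because its counts were too low in both groups. Relative to mESC-ser, 2 genes rose (Ier2 and Atf3) and the other 8 fell, against 73.3% of all genes called, 35.5% higher and 37.8% lower. The median over the genes tested was -0.32 relative to mESC-2i and -1.24 relative to mESC-ser, where all tested genes had -0.11 and -0.07. The comparisons share libraries with each other and are therefore not independent. CPM values below were scaled by the trimmed mean of M-values (TMM) over all 9 libraries, and each log2 fold change comes from a fit to the 2 groups compared.

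**Figure D1:**
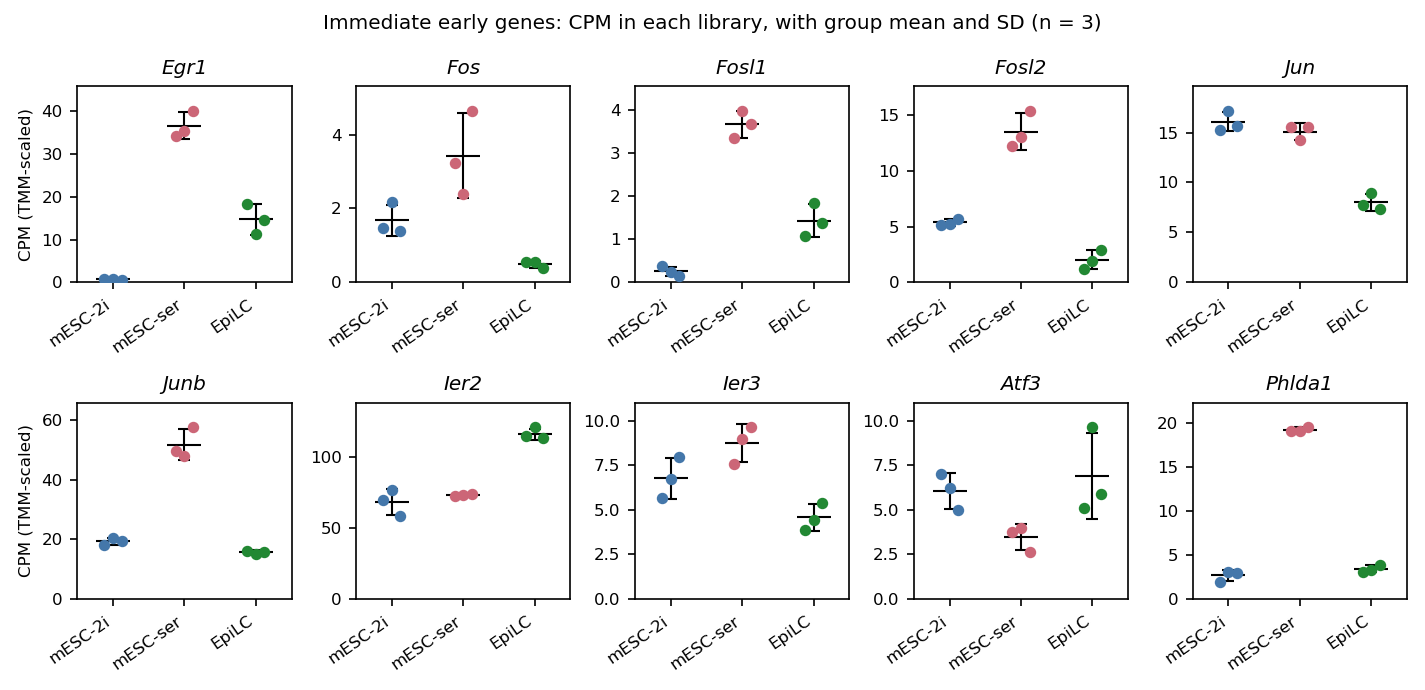
CPM of each of the 10 immediate early genes (y axis, linear from 0) in the 3 libraries of each culture state (coloured points), with the group mean (horizontal bar) and SD (error bar, n = 3). Egr1 and Phlda1 were low in mESC-2i (highest libraries 0.834 and 3.09 CPM) and high in mESC-ser (lowest libraries 34.3 and 19), whereas Ier2 was highest in EpiLC (113 to 121).

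Egr1 encodes a zinc-finger transcription factor and is among the most used readouts of ERK activity. The gene (ENSMUSG00000038418) lies on mm10 chromosome 18 from 34859823 to 34864984 on the plus strand. Its level was 0.737, 0.834 and 0.546 CPM in replicates 1, 2 and 3 of mESC-2i, where the libraries held 6, 10 and 7 counts. In mESC-ser it was 34.3, 35.4 and 40.2 CPM, and in EpiLC 18.4, 11.3 and 14.6 CPM. The 3 groups did not overlap, and EpiLC lay between the mESC states. Egr1 rose by 5.64 on the log2 scale in mESC-ser over mESC-2i (edgeR adjusted p = 1.53e-08, SE 0.19), a 49.8-fold difference and the largest of the 10 genes. It was also higher in EpiLC than in mESC-2i, with a log2 fold change of 4.35 (edgeR adjusted p = 1.89e-07, SE 0.27), and lower in EpiLC than in mESC-ser, with -1.24 (edgeR adjusted p = 2.65e-07, SE 0.14).

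The FOS proteins are the AP-1 subunits that bind DNA only when paired with a JUN protein. Fos itself (ENSMUSG00000021250, chromosome 12 from 85473890 to 85477273, plus strand) was measured at 1.47, 2.17 and 1.4 CPM in the mESC-2i libraries, 3.22, 2.38 and 4.65 CPM in those of mESC-ser and 0.537, 0.542 and 0.377 CPM in those of EpiLC. The groups did not overlap, although mESC-ser replicate 2 lay just above mESC-2i replicate 2. Fos was 1.97-fold higher in mESC-ser than in mESC-2i, with a log2 fold change of 0.98 (edgeR adjusted p = 0.0148, SE 0.30), and this call rested on mESC-ser replicate 3, since it was 0.69 with an adjusted p of 0.0731 without that library. The fall in EpiLC was larger. The log2 fold change was -1.79 (edgeR adjusted p = 0.00115, SE 0.37) relative to mESC-2i and -2.74 (edgeR adjusted p = 4.82e-06, SE 0.38) relative to mESC-ser, from 12 counts over the 3 EpiLC libraries together. Fos thus had the opposite order to Egr1 between mESC-2i and EpiLC, with its lowest group in EpiLC and not in mESC-2i.

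Fosl1 encodes FRA-1, a FOS protein without the strong activation domain of FOS and a target of AP-1 itself. The gene (ENSMUSG00000024912, chromosome 19 from 5447547 to 5455946, plus strand) gave 0.368, 0.25 and 0.156 CPM in mESC-2i, from 3, 3 and 2 counts. Its level was 3.36, 3.99 and 3.67 CPM in mESC-ser and 1.07, 1.84 and 1.38 CPM in EpiLC, so the groups stood apart in the order seen for Egr1. The log2 fold change of mESC-ser over mESC-2i was 3.80 (edgeR adjusted p = 4.25e-06, SE 0.33). With 159 counts against 8, the ratio of summed counts, each divided by the summed TMM-scaled library sizes, was 15.1. Its 95% interval of 7.46 to 35.5 covers counting error only. The EpiLC to mESC-2i ratio was 6.02 (2.75 to 15, from 36 against 8 counts). A fit to all 9 libraries, in which the gene passed the filter, gave a log2 fold change of 2.51 (edgeR adjusted p = 8.4e-05, SE 0.43). That filter also drew on the mESC-ser libraries, outside this comparison, where the gene held 48, 47 and 64 counts. Those counts alone were enough for it to pass, so this p does not replace the missing call in the fit to the 2 groups. Fosl1 was lower in EpiLC than in mESC-ser by a log2 fold change of -1.24 (edgeR adjusted p = 0.000212, SE 0.25). Of its 2033 exonic bases, 1163 overlap exons of Ccdc85b on the opposite strand. The library kit does not mark strand, and Ccdc85b had 10.5 ± 0.261, 10.8 ± 1.1 and 32.2 ± 3.81 CPM (SD, n = 3) in mESC-2i, mESC-ser and EpiLC, so reads in the shared part cannot be told apart.

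Fosl2 encodes FRA-2, the other FOS protein of this kind. The gene (ENSMUSG00000029135, chromosome 5 from 32135801 to 32157842, plus strand) was measured at 5.16, 5.25 and 5.69 CPM in the mESC-2i libraries, 12.2, 13 and 15.4 CPM in those of mESC-ser and 1.21, 1.95 and 2.89 CPM in those of EpiLC. No groups overlapped, and the order from mESC-ser to mESC-2i to EpiLC was that of Fos. Its log2 fold change was 1.27 in mESC-ser over mESC-2i (edgeR adjusted p = 4.19e-05, SE 0.15), -1.42 in EpiLC over mESC-2i (edgeR adjusted p = 0.000576, SE 0.27) and -2.65 in EpiLC over mESC-ser (edgeR adjusted p = 6.32e-09, SE 0.22).

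JUN proteins can pair with each other or with a FOS protein. Jun (ENSMUSG00000052684, chromosome 4 from 95049034 to 95052222, minus strand), the founding member, did not follow Egr1. It was measured at 15.3, 17.2 and 15.7 CPM in mESC-2i and 15.6, 14.2 and 15.6 CPM in mESC-ser, ranges that overlapped, and at 7.78, 8.9 and 7.29 CPM in EpiLC, below all 6 mESC libraries. The log2 fold change between the mESC states was -0.14, with a 95% interval of -0.41 to 0.13, and 0.21 after the length and GC correction. Jun fell in EpiLC by a log2 fold change of -1.02 (edgeR adjusted p = 6.04e-05, SE 0.14) relative to mESC-2i and -0.83 (edgeR adjusted p = 1.96e-05, SE 0.13) relative to mESC-ser.

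Junb encodes a JUN protein that activates transcription less strongly than JUN and can oppose it. The gene (ENSMUSG00000052837, chromosome 8 from 84974484 to 84978718, minus strand) was measured at 18.1, 20.3 and 19.6 CPM in the mESC-2i libraries, 49.7, 48.1 and 57.8 CPM in those of mESC-ser and 16.2, 15.1 and 15.7 CPM in those of EpiLC. All mESC-ser libraries were far above the rest, and the EpiLC libraries lay narrowly below those of mESC-2i. Junb rose by 1.37 in mESC-ser over mESC-2i (log2 scale, edgeR adjusted p = 3.58e-06, SE 0.12) and was lower in EpiLC than in mESC-ser by a log2 fold change of -1.64 (edgeR adjusted p = 2.33e-10, SE 0.10). Between EpiLC and mESC-2i the log2 fold change of -0.32 (edgeR adjusted p = 0.0247, SE 0.12) was under the fold limit, which it passed with total-count scaling (-0.66) and after the length and GC correction (-0.61). Junb shares 173 exonic bases with the opposite-strand gene Prdx2, at 200 ± 40.1, 129 ± 27.4 and 498 ± 29.8 CPM in mESC-2i, mESC-ser and EpiLC, and Jun shares 232 with Junos, at 0.236 to 1.1 CPM.

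**Figure D2:**
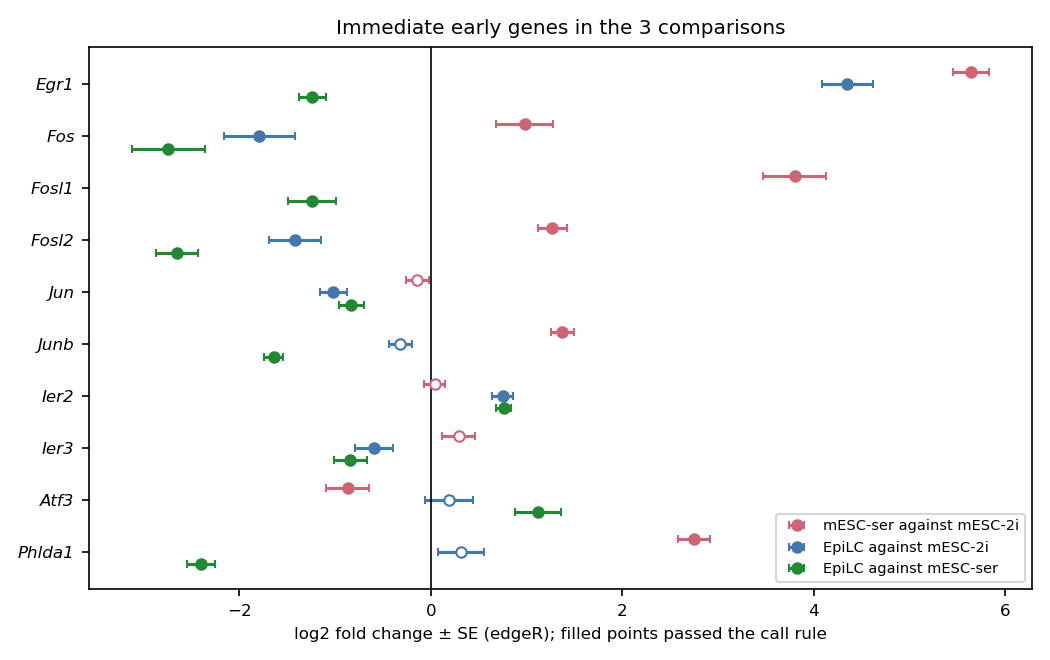
Log2 fold change (x axis) with its SE from edgeR for each immediate early gene in each of the 3 comparisons, coloured by comparison. Filled points passed the call rule, open points did not, and Fosl1 has no point for EpiLC against mESC-2i. Egr1 and Fosl1 lie farthest to the right in mESC-ser against mESC-2i, at 5.64 and 3.80.

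The make-up of AP-1 mRNA was described on a per-length scale, as CPM per kilobase of exon (FPKM), with Fosb and Jund completing the families. The FOS family summed to 1.44 ± 0.16 FPKM in mESC-2i, compared with 4.83 ± 0.685 in mESC-ser and 1.14 ± 0.236 in EpiLC (SD, n = 3), so that mESC-ser lay above both other states while the ranges of mESC-2i and EpiLC, 1.34 to 1.63 and 0.903 to 1.37, overlapped. Its leading member changed with the state. Fos held 49.1% ± 6.71 of the family in mESC-2i, compared with 29.6% ± 6.29 in mESC-ser and 18.7% ± 5.85 in EpiLC. Fosl1 held 8.9% ± 4.11, 37.9% ± 6.07 and 61.4% ± 4.03, and its ranges did not overlap between any of the states. Fosl2 held 38.8% ± 5, 29% ± 1.11 and 18.2% ± 6.92, and Fosb never exceeded 7.34% in a library. The large Fosl1 share carries the overlap with Ccdc85b given above.

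The JUN family was far more abundant, with 85.6 ± 10.9 FPKM in mESC-2i, compared with 72.9 ± 7.37 in mESC-ser and 125 ± 8.86 in EpiLC. Jund, which many cell types express without stimulation, supplied 84.2% ± 1.63, 62.5% ± 0.742 and 92.5% ± 0.667 of it. Junb reached 30.9% ± 0.265 in mESC-ser against 9.89% ± 1.14 in mESC-2i and 5.48% ± 0.599 in EpiLC, whereas Jun held 5.92% ± 0.489, 6.54% ± 0.529 and 2.01% ± 0.189 in mESC-2i, mESC-ser and EpiLC. The JUN to FOS family ratio was 59.3 ± 3.27 in mESC-2i, compared with 15.1 ± 0.59 in mESC-ser and 112 ± 15.7 in EpiLC. mESC-ser therefore had the lowest excess of JUN over FOS mRNA of the 3 states. Jund shares 877 of its 1668 exonic bases with an opposite-strand transcript, Gm11175, so its level is uncertain to that extent.

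**Figure D3:**
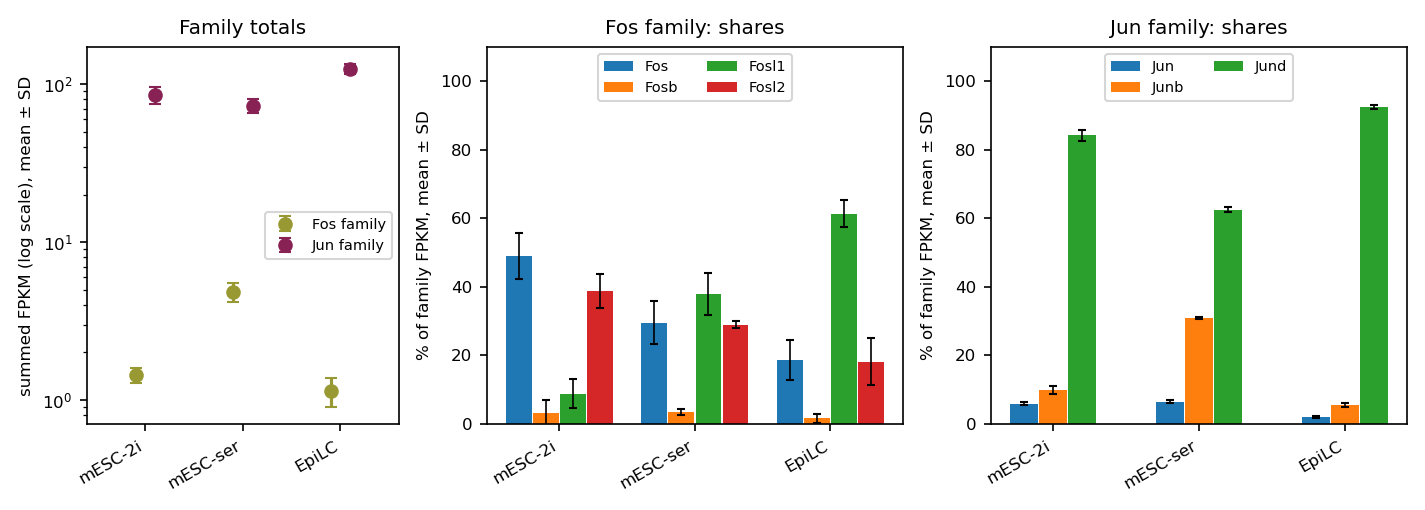
Left, summed FPKM of the FOS family (Fos, Fosb, Fosl1, Fosl2) and the JUN family (Jun, Junb, Jund) in each state, on a log axis. Middle and right, the percentage of each family's FPKM held by each member. Points and bars are means and error bars are SD over 3 libraries, and Fosl1 goes from 8.9% of the FOS family in mESC-2i to 61.4% in EpiLC.

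Atf3 encodes a bZIP factor that responds to stress as well as to growth signals and often represses transcription. The gene (ENSMUSG00000026628, chromosome 1 from 191170296 to 191218039, minus strand) was the only one of the 10 that fell in mESC-ser relative to mESC-2i. It was measured at 7, 6.25 and 4.99 CPM in the mESC-2i libraries, 3.78, 3.99 and 2.64 CPM in those of mESC-ser and 5.1, 9.66 and 5.9 CPM in those of EpiLC. Every mESC-ser library was below every other library, whereas mESC-2i and EpiLC overlapped and EpiLC replicate 2 stood well above its group. The log2 fold change was -0.87 in mESC-ser over mESC-2i (edgeR adjusted p = 0.00516, SE 0.22) and 1.12 in EpiLC over mESC-ser (edgeR adjusted p = 0.000378, SE 0.24). Between EpiLC and mESC-2i it was 0.19, with a 95% interval of -0.37 to 0.76. The fall in mESC-ser missed the rule after correction for transcript length and GC content, at -0.43 (edgeR adjusted p = 0.0706).

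Ier2 encodes a nuclear protein and was by far the most abundant of the 10 genes per length, at 44.9 ± 6.14 FPKM in mESC-2i, compared with 47.9 ± 0.454 in mESC-ser and 76.5 ± 2.56 in EpiLC. The gene (ENSMUSG00000053560) is a single-exon gene on chromosome 8 from 84661331 to 84662852, minus strand. Its CPM was 69.9, 76.7 and 58.2 in the mESC-2i libraries, 72.2, 72.8 and 73.5 in those of mESC-ser and 115, 121 and 113 in those of EpiLC. The mESC states overlapped and every EpiLC library lay above all 6 of them. Between mESC-ser and mESC-2i the log2 fold change was 0.04, with a 95% interval of -0.22 to 0.29, and no difference was called. In EpiLC, Ier2 was higher by 0.75 over mESC-2i (log2 scale, edgeR adjusted p = 8.89e-05, SE 0.11) and by 0.76 over mESC-ser (edgeR adjusted p = 9.59e-08, SE 0.08). Both EpiLC differences depended on the scaling. They were 0.41 and 0.42 when libraries were scaled by total counts, and 0.28 and -0.07 after correction for length and GC content.

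Ier3 encodes a small protein that modulates cell survival and ERK signalling. The gene (ENSMUSG00000003541, chromosome 17 from 35821684 to 35822923, plus strand), the shortest of the 10 with 1131 exonic bases, was measured at 5.65, 6.75 and 7.95 CPM in the mESC-2i libraries, 7.56, 8.99 and 9.65 CPM in those of mESC-ser and 3.89, 4.45 and 5.4 CPM in those of EpiLC. The mESC states overlapped and EpiLC lay below both. The log2 fold change of mESC-ser over mESC-2i was 0.29, with a 95% interval of -0.09 to 0.67, and it passed the rule only after the length and GC correction, at 0.78 (edgeR adjusted p = 0.00329). Ier3 fell in EpiLC by a log2 fold change of -0.59 (edgeR adjusted p = 0.0186, SE 0.20) relative to mESC-2i, a call lost with DESeq2 (-0.52) and without mESC-2i replicate 3 (-0.47) or without EpiLC replicate 1 (-0.48) or 2 (-0.56). The fall relative to mESC-ser was -0.84 (edgeR adjusted p = 0.000284, SE 0.17).

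Phlda1 encodes a pleckstrin-homology-like domain protein and is an ERK target in several cell types. The gene (ENSMUSG00000020205, chromosome 10 from 111506286 to 111508645, plus strand) was measured at 1.96, 3.09 and 2.96 CPM in the mESC-2i libraries, 19.1, 19 and 19.5 CPM in those of mESC-ser and 3.09, 3.25 and 3.89 CPM in those of EpiLC. The mESC-ser libraries were tightly grouped and stood apart, while the lowest EpiLC library lay at the level of the highest mESC-2i library. Phlda1 rose 6.75-fold in mESC-ser over mESC-2i, a log2 fold change of 2.75 (edgeR adjusted p = 3.9e-07, SE 0.17), and was lower in EpiLC than in mESC-ser by -2.40 (edgeR adjusted p = 1.31e-10, SE 0.15). For EpiLC over mESC-2i the log2 fold change was 0.31, with a 95% interval of -0.22 to 0.83. Egr1 was 20.4-fold above mESC-2i there. Of the exonic bases of Phlda1, 727 are shared with the opposite-strand transcript Gm28592.

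The genes fell into several orders of their group means. In mESC-ser lay the highest mean of 7 genes (Egr1, Fos, Fosl1, Fosl2, Junb, Ier3 and Phlda1), of which Egr1, Fosl1 and Phlda1 had their lowest mean in mESC-2i and the other 4 in EpiLC. Ier2 and Atf3 had their highest mean in EpiLC and Jun in mESC-2i. The EpiLC libraries stood above all others for Ier2, while for Atf3 those of EpiLC and mESC-2i overlapped, and for Jun those of mESC-2i and mESC-ser. The highest group was mESC-2i for Atf3 under total-count scaling, and mESC-ser for Jun and Ier2 after the length and GC correction. Per length, the rarest member was Fosl1 in mESC-2i (0.127 ± 0.0524 FPKM), Fosl2 in mESC-ser (1.4 ± 0.172) and Fos in EpiLC (0.206 ± 0.04), although in mESC-2i Fosl1 and Egr1 (0.157 ± 0.0327), in mESC-ser Fosl2, Fos (1.45 ± 0.489) and Atf3 (1.61 ± 0.337) and in EpiLC Fos and Fosl2 (0.208 ± 0.0871) did not differ beyond their spread. The place of Fosl1 is also uncertain through its overlap with Ccdc85b given above.

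Within groups, the genes were not spread evenly over the replicates. In mESC-ser, replicate 3 had the highest level of 8 of the 10 genes, all but Fosl1 and Atf3, where 42.1% of 15287 expressed genes had their highest mESC-ser level in that library. In mESC-2i, replicate 2 was highest for 6 of the 10 (40.2% of expressed genes), and in EpiLC replicate 2 for 5 (32.8%). Without mESC-ser replicate 3, the calls between mESC-ser and mESC-2i lost Fos and no other member.

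For each gene, the 3 genes with the nearest pattern over the 9 libraries were found among 10546 genes with a mean of at least 5 CPM, by the Euclidean distance between gene-centred log2 CPM values. Nearest to Egr1 were Itga3, an integrin subunit, Arap3 and the filamin Flnc, at distances of 0.93, 0.94 and 1.13. Itga3 was at 5.96 CPM in mESC-2i, compared with 230 in mESC-ser and 134 in EpiLC, the same order as Egr1. Among those nearest to Fosl1 were the calponin Cnn2 (0.66) and the ETS factor Etv1 (0.89), and among those nearest to Fosl2 were the protease Bmp1 (0.61) and Fam199x (0.65). The neighbours of Fos were Tgfb1i1 (0.69), Cyld (0.75) and Gbx2 (0.77). Those of Junb lay closer, at 0.24 for Ube3c, 0.25 for Ltn1 and 0.29 for Urb2, and so did those of Jun (Pi4k2a 0.25, Fchsd1 0.26, Ap2a1 0.27) and Ier2 (the tubulin Tubb5 0.14, Ddx49 0.14, Nudt21 0.17). Ier3 had L3mbtl3 (0.30), Taok2 (0.33) and Wiz (0.36), Atf3 had Shld1 (0.59), Msrb1 (0.61) and Gpr180 (0.63), and Phlda1 had Prex2 (0.68), Tspan2 (0.69) and Ccdc3 (0.76). No gene was the neighbour of 2 members, and genes with a small change between groups have small distances by construction.

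The counts of the gene lists below are to be read beside the shares of all tested genes. These were 25.9% higher and 30.3% lower in mESC-ser over mESC-2i. In EpiLC they were 32.0% and 37.8% over mESC-2i, and 35.5% and 37.8% over mESC-ser. Other immediate early genes also moved in both directions. Of 27 listed, 23 were tested between mESC-ser and mESC-2i, 13 rose and 6 fell, with a median log2 fold change of 0.87. Myc, the growth regulator, rose by 3.98, and the secreted matricellular genes Ccn1 and Ccn2 by 2.54 and 2.64. Egr4 went from 2 counts over the mESC-2i libraries to 57 in mESC-ser, a ratio of 21.6 with a counting interval of 5.71 to 183. The antiproliferative gene Btg2, with -1.62, and Nfil3, with -1.13, fell. In EpiLC relative to mESC-2i, 6 of 21 rose and 10 fell (4 and 13 with total-count scaling), with Myc at 2.66 and Ier5 at 1.70 among the former and Btg2 at -2.02, Plk2 at -1.84 and Klf6 at -1.23 among the latter. Ccn1 and Ccn2 fell there too, at -1.17 and -1.16, as did Fos and Fosl2. Relative to mESC-ser, 3 of 23 rose in EpiLC, Ier5 (2.28) among them, and 11 fell (2 and 16 with total-count scaling), led by Ccn2 (-3.76), Ccn1 (-3.65) and Klf6 (-2.14).

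The remaining AP-1 and partner bZIP genes, 12 listed and 11 in the table, showed no common direction. Between mESC-ser and mESC-2i, 3 of 7 tested rose, including the small MAF protein gene Mafk (1.21), and 2 fell, namely Jdp2, which encodes an AP-1 repressor (-2.52), and Jund (-0.72). After the length and GC correction 1 rose and 1 fell, and Jund had -0.48. In EpiLC relative to mESC-2i, 3 of 8 rose, with Batf3 at 3.04 and Jund at 0.66, and only Jdp2 fell, at -2.67. With total-count scaling 1 rose and 2 fell, and Jund had 0.32, or 0.27 after the correction. Relative to mESC-ser, 2 of 8 rose, Batf3 at 2.79 and Jund at 1.43, and 2 fell.

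The kinases and adaptors that carry the signal to these genes were examined next. Of 17 genes of the RAS to ERK cascade, 5 rose in mESC-ser over mESC-2i and none fell, with Braf at 2.26, and 12 did not pass the test (3 rose and 1 fell after the length and GC correction). In EpiLC 5 rose and 6 fell relative to mESC-2i, a split that was 4 and 10 with total-count scaling and 6 and 0 after the length and GC correction, and 4 rose and 9 fell relative to mESC-ser, or 5 and 3 after that correction. The 5 that rose in mESC-ser, and the 5 and 6 in EpiLC over mESC-2i, were near the shares of all tested genes. Of 10 ERK feedback genes, which encode phosphatases, Sprouty and Spred proteins and ETV factors, 9 rose in mESC-ser and none fell, with a median of 1.60. Spry4 rose by 6.43, Dusp6 by 3.32 and Spry2 by 1.52. In EpiLC relative to mESC-2i, 6 rose and 1 fell (6 and 3 with total-count scaling), with Spry4 at 4.37 and Dusp6 at 3.98, both higher as Egr1 was, and Spry2 at -1.35, lower as Fos was. Relative to mESC-ser, Dusp6 was higher in EpiLC (0.70, and 0.36 with total-count scaling, under the fold limit) and 5 were lower, including Spry2 (-2.83) and Spry4 (-2.02).

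SRF, the factor that binds the CArG box, has ternary complex and MRTF cofactors. Srf rose by 1.10 in mESC-ser over mESC-2i, by 1.70 in EpiLC over mESC-2i and by 0.64 in EpiLC over mESC-ser, where it was 0.30 with total-count scaling and 0.19 after the length and GC correction. Of the 6 genes of this list, 3 rose and 1 fell in mESC-ser over mESC-2i, with Mrtfb at 0.84 and the ternary complex factor gene Elk3 at -1.11. In EpiLC, 1 rose and 3 fell relative to mESC-2i, Elk3 by a log2 fold change of -4.33, or 2 and 2 after that correction, and 1 rose and 4 fell relative to mESC-ser, or 0 and 4 with total-count scaling. All 13 listed MRTF-SRF cytoskeletal genes rose in mESC-ser over mESC-2i, with a median of 1.85, Myl9 at 6.24 and Tagln at 6.14. In EpiLC, 8 rose and 1 fell relative to mESC-2i, with Myl9 at 7.36 and Tagln at 3.31. Relative to mESC-ser, 4 rose, Myl9 (1.18) among them, and 8 fell, Tagln (-2.77) among them. After the length and GC correction these were 2 and 7, and Myl9 had 0.25.

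Among 14 delayed early and AP-1 target genes, 10 were tested between mESC-ser and mESC-2i, 5 rose and 4 fell. Mmp9 (3.33) and Hbegf (1.30) were among those that rose and Vegfa (-1.52) among those that fell. In EpiLC 0 of 8 tested rose and 6 fell relative to mESC-2i (1 and 6 after the length and GC correction), led by Spp1 (-3.81) and Hbegf (-1.90), and 2 of 10 rose and 5 fell relative to mESC-ser (0 and 7 with total-count scaling), with Spp1 at -3.16 and Hbegf at -3.15. Of 6 attenuators, genes whose products limit immediate early mRNAs or factors, 2 rose and 1 fell in mESC-ser over mESC-2i, with Nab1, a corepressor of EGR1, at 0.90 and Tob1 at -0.63 (3 and 0 after the length and GC correction, with Tob1 at -0.48). In EpiLC, 1 rose and 4 fell in each comparison, or 0 and 4 relative to mESC-ser with total-count scaling and after the length and GC correction, including Tob1 at -3.31 relative to mESC-2i and -2.63 relative to mESC-ser, and Zfp36l1, which encodes an mRNA-destabilising protein, at -2.50 and -2.68.

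Atf3 was set beside the ATF4 stress genes, because Atf3 is a known ATF4 target. Of 10 such genes, 6 fell in mESC-ser over mESC-2i and none rose, with a median of -0.81. Asns fell by a log2 fold change of -1.93, Trib3 of -0.89, Atf4 itself of -0.87 and Ddit3 of -0.74, and Atf3 had -0.87. Atf4 and Ddit3 missed the rule after the length and GC correction, at -0.45 and -0.28. In EpiLC relative to mESC-2i, 4 rose and 2 fell, with Chac1 at 2.39, or 1 and 4 with total-count scaling and 3 and 3 after the correction. Atf3 had 0.19 there and was not called. The part of ATF4 in the level of Atf3 was not tested. Relative to mESC-ser, 6 rose and 0 fell in EpiLC (6 and 1 after the correction), with Chac1 at 2.42, Trib3 at 1.57, Ddit3 at 1.41 and Atf4 at 1.19, beside 1.12 for Atf3. Of 10 heat shock genes, 4 rose and 2 fell in mESC-ser over mESC-2i, 3 rose and 4 fell in EpiLC over mESC-2i, and 1 rose and 5 fell in EpiLC over mESC-ser. After the correction these were 4 and 0, 4 and 2, and 2 and 4.

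**Figure D4:**
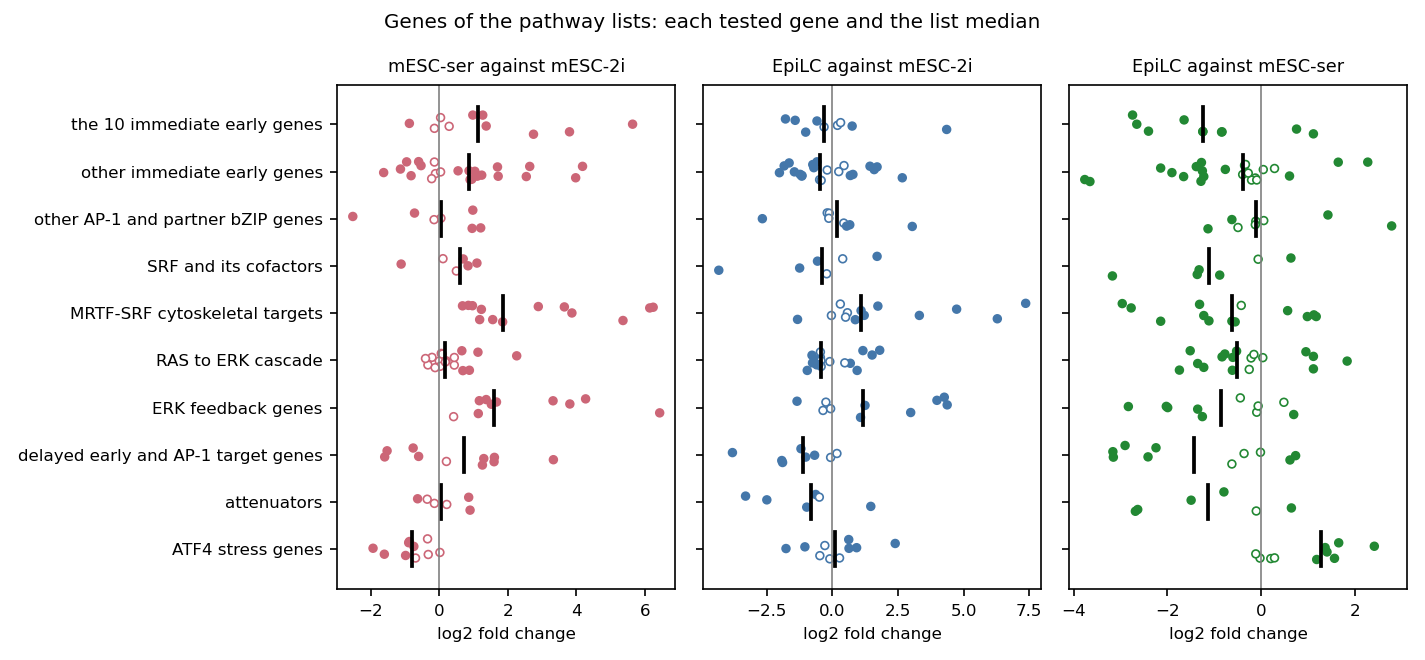
Log2 fold change (x axis, a separate scale in each panel) of every tested gene of 10 lists in the 3 comparisons, with filled points for genes that passed the call rule and a black bar at the list median. The medians of the ERK feedback genes were 1.60 and 1.15 in mESC-ser and EpiLC over mESC-2i, and that of the ATF4 stress genes was -0.81 in mESC-ser over mESC-2i.

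Every comparison, that of mESC-ser with mESC-2i included, carried a shift with exonic length that touches the shorter genes among the 10. Over protein-coding genes tested, the Spearman correlation of log2 fold change with exonic length, across genes that are not independent replicates, was 0.28 in mESC-ser over mESC-2i, -0.3 in EpiLC over mESC-2i and -0.498 in EpiLC over mESC-ser, and 0.0298, -0.0862 and -0.119 after the correction for length and GC content. The median of all tested genes moved from -0.11 to -0.45 (EpiLC over mESC-2i) and from -0.07 to -0.41 (EpiLC over mESC-ser) under total-count scaling, and to 0.21 and 0.16 after the correction. Ier2, with 1522 exonic bases against a median of 4426 for the tested protein-coding genes in mESC-ser over mESC-2i, was the member that passed the call rule with TMM and changed direction, to -0.07 in EpiLC over mESC-ser after the correction. Among values that had not passed, Atf3 (-0.15) and Phlda1 (-0.03) changed direction in EpiLC over mESC-2i with total counts, and in mESC-ser over mESC-2i Ier2 did so with total counts (-0.01) and Jun after the correction (0.21). Egr1, with 4484 exonic bases, and Fosl2, with 9680, kept their direction and call in every comparison under both settings. The members that rose and fell in EpiLC numbered 1 and 5 over mESC-2i, and 1 and 8 over mESC-ser, under either setting. Over all genes tested, 4922 rose and 5810 fell in EpiLC over mESC-2i, against 3709 and 7284 with total counts and 5857 and 4391 after the correction, and over mESC-ser 5444 rose and 5802 fell, against 4294 and 7195, and 5680 and 4331. Measured from the median of all tested genes, Ier2 lay 0.83 above it in EpiLC over mESC-ser with TMM and with total counts alike, and at -0.23 after the correction. In EpiLC over mESC-2i, Atf3 lay 0.30 and Phlda1 0.42 above the median under both scalings, and at 0.13 and -0.10 after the correction.

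**Figure D5:**
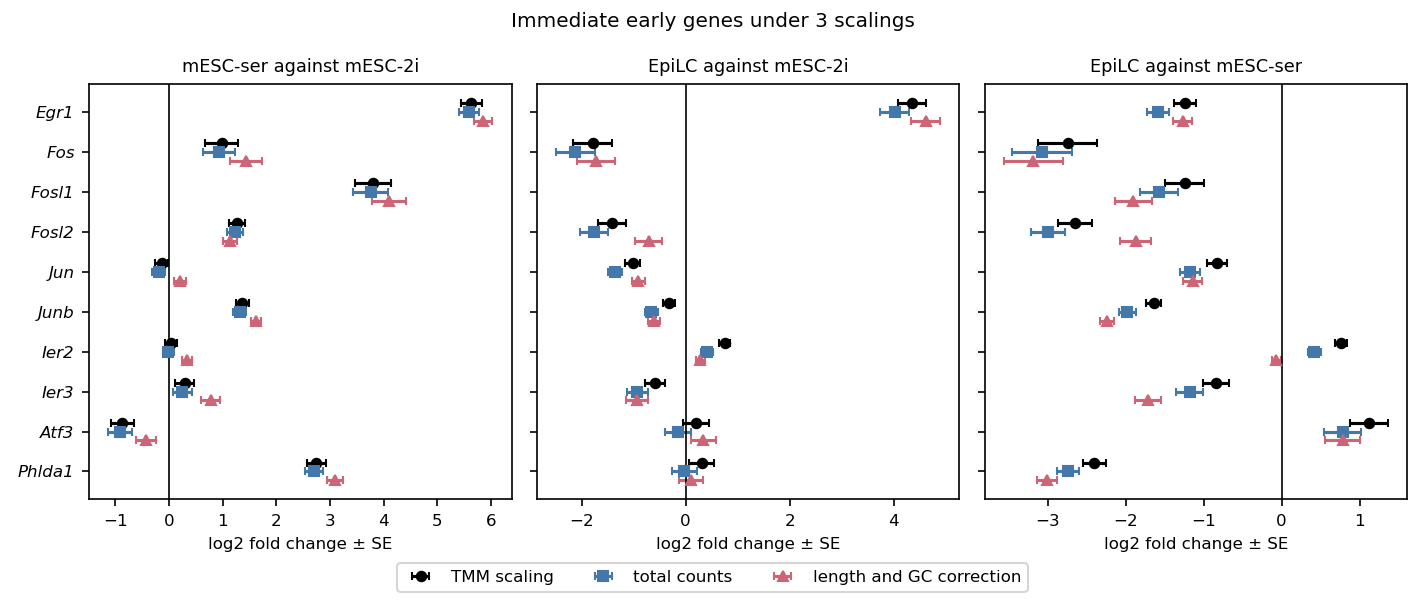
Log2 fold change (x axis, a separate scale in each panel) with its SE for each immediate early gene in the 3 comparisons under TMM scaling (circles), total-count scaling (squares) and TMM scaling with the length and GC correction (triangles). Ier2 in EpiLC against mESC-ser moves from 0.76 to 0.42 and -0.07, while Egr1 stays far from 0 in all 3 panels.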

How the data were processed

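The authors sequenced poly-A RNA from 3 biological replicates of mESC-2i, mESC-ser and EpiLC (TruSeq v2 kit, which does not mark strand, 50 bp single-end reads). Per the labels, the reads passed through FastQC 0.11.0, Trim Galore 0.6.6, HISAT2 2.2.1 on mm10 and featureCounts of Subread 2.0.1. The deposited values are raw counts per Ensembl gene. The annotation release, the handling of multi-mapped reads and the strand option of the counter are not given in the sources used here. The table held 38293 genes, 13184 of them without a count, and 36345 (94.9%) matched GENCODE M21, from which symbols, positions and exonic lengths were taken. Depth was 7187576 to 16829549 counts.

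Each comparison was fitted to the 2 groups over the whole table with edgeR 4.0.16 (R 4.3.3; filterByExpr, TMM, glmQLFit and glmQLFTest), and a call needed a log2 fold change beyond 0.5 in either direction with a Benjamini-Hochberg adjusted p below 0.05. CPM and FPKM were computed from the counts. p-values measure the spread between these cultures. The script was tested on simulated data. The alternatives were scaling by RLE, by upper quartiles and by total counts, 2 other filters on low counts, DESeq2 1.42.0, a fit to all 9 libraries, a replicate block, a correction for exonic length and GC content (natural splines), other call rules, and leaving out each library. Same-numbered mESC-ser and mESC-2i libraries deviated together from their group means over 16318 genes (r of 0.127, 0.18 and 0.34). However, mESC-ser replicate 1 had 0.144 with mESC-2i replicate 2, and mESC-ser replicate 2 had 0.0609 with mESC-2i replicate 1. Replicate 3 of either group had -0.16 to -0.276 with the other numbers. In the EpiLC comparisons same-numbered libraries had 0.0221 to 0.109 with mESC-2i and 0.017 to 0.0339 with mESC-ser. Differently numbered ones reached 0.0103 and 0.016 there. These values do not settle whether replicate numbers mark pairs, and the main fits did not include a pairing. The numbers entered only as the replicate block among the alternatives.

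The 10 genes, the other gene lists and the motifs were chosen with earlier results of these data known. Named genes were all 10, the called genes of each list with the 3 largest rises and falls or the 3 highest mean levels, the 3 nearest genes to each member, and the markers. Of these, the text gives a selection, and some named genes are not reported here. Promoter sequences came from a RefSeq table on GRCm38.p6.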

Additional observations from a re-analysis of the deposited data

How the results depend on the processing

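Over all alternatives, 457 of the members' recomputed log2 fold changes kept their direction and their side of the call rule, 16 lost a call, 4 gained 1 and 8 changed sign. Between mESC-ser and mESC-2i, Ier2 was -4e-05 with upper-quartile scaling, -0.01 with total counts and ran from -0.06 (without mESC-2i replicate 3) to 0.12 when 1 library was left out, and Jun was 0.21 after the length and GC correction. In EpiLC over mESC-2i, Atf3 was -0.15 and Phlda1 -0.03 with total counts, and Atf3 ran from -0.14 (without EpiLC replicate 2) to 0.37 when 1 library was left out. In EpiLC over mESC-ser, Ier2 was -0.07 after the length and GC correction. The cause was not tested. A fold limit of 1 called 4935 genes between mESC-ser and mESC-2i in place of 8843, by its construction. A filter of 10 counts in every library left 3 of the 10 genes called in EpiLC over mESC-2i in place of 6, since fewer members were then tested. Ranking the nearest genes by Pearson's r kept 5 of the 30 found by distance. With the replicate number as a block, which treats same-numbered libraries as pairs, 7, 6 and 10 members were called in the 3 comparisons, as without it. In all, 8953, 10759 and 11207 genes were called, and the block changed no call among the 10 genes. Fos, Fosl1 and Egr1 had 12, 8 and 23 counts over the 3 libraries of their lowest group, which limits the precision of their fold changes.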
